A study of Homo sapiens with 4 samples.

Results

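The genes surrounding ERBB2 on the long arm of chromosome 17, from MLLT6 on the centromeric side to SMARCE1 on the telomeric side, were followed in parental and lapatinib-resistant SkBr3 and BT474 cells. The list named 36 of the protein-coding genes of this stretch, and its rule sets no limit on a measured value. It is not complete, as 9 other genes that passed the filter below lie within the stretch. A probe on the array could be matched by RefSeq accession to 35 of the 36 (53 probes), and 30 genes reached a signal of 100 on at least 1 of the 4 arrays, out of 12136 that did so among 16422 named genes. ERBB2 lies between PGAP3 and MIEN1 and serves here only as the landmark.

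Total RNA from 4 samples was hybridized to Agilent whole-genome arrays in a single Cy3 channel, with 1 array per sample. Both SkBr3 and BT474 come from breast cancers that overexpress HER2, and their parental cells received vehicle. The other samples were 1 lapatinib-resistant clone of each line, selected in rising concentrations of lapatinib, which blocks the kinases EGFR and HER2, to a maximum of 1 μM. For its protein blots the study kept such clones in 1 μM lapatinib. Its array methods do not state whether the drug was present when RNA was taken. Resistance and continued exposure therefore cannot be told apart where a clone is compared with its parent. The labels number these clones 3 (SkBr3) and 6 (BT474) and the study's text numbers them the other way round, so they are called the SkBr3 clone and the BT474 clone. A clone that descends from 1 selected cell may differ from its parent in ways unrelated to the drug, and there are no replicates, so a difference below is between single arrays and was not tested unless limma is named. The SkBr3 clone was hybridized on a slide of its own and the other 3 arrays shared a slide, so slide and clone cannot be told apart wherever the SkBr3 clone enters, which covers its comparisons with its parent and with the BT474 clone and the limma fits.

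The values are processed signals, intensities on a linear scale with the local background removed. Overall brightness differed between arrays, with the signal at the 75th percentile of all probes at 1115 in SkBr3, 2074 in the SkBr3 clone, 1158 in BT474 and 1681 in the BT474 clone. Every log2 difference and fold is therefore taken after each array was divided by its own 75th percentile, and raw signals are printed to show how far above background a gene was. The lowest signal that the scanner software marked as well above background was 13.3 to 16. Repeated spots of one probe within an array had a median SD of 0.06 to 0.07 on the log2 scale. Different probes of one gene spread more widely, with a median range of 0.54 (log2) for the parental difference over the 12 members with at least 2 usable probes. The 5 reference genes GAPDH, ACTB, TBP, RPLP0 and PPIA differed between the parents by -0.39 to 1.03 (log2), in the SkBr3 clone by -0.51 to 0.77, in the BT474 clone by -0.86 to -0.02 and between the clones by -0.25 to 1.41. Across 25063 probes each clone resembled its own parent most closely, with Pearson's r of 0.94 for SkBr3 and 0.97 for BT474 against 0.86 to 0.90 across lines. Luminal epithelial markers were well above background for 7 of 7 genes in both BT474 arrays and 6 of 7 in both SkBr3 arrays, the exception being CDH1 (12 in SkBr3 and 4.66 in its clone, not well above background). Basal, fibroblast and endothelial markers had their highest summed signal in the SkBr3 clone. There it was 5489 for 4 basal genes, 431 for 5 fibroblast genes and 1395 for 3 endothelial genes. The other arrays gave 112 to 2489, 20.5 to 23.0 and 181 to 905. Not every gene followed. TP63 read 432 in the SkBr3 clone, 1125 in BT474 and 1966 in the BT474 clone, and VWF read 320, 892 and 594. Of the fibroblast genes, only COL3A1 (347) and PDGFRB (64.8) were well above background in the SkBr3 clone. Of 5 leukocyte genes 2 to 4 were well above background, with PTPRC not so on any array. Their summed signal was 161 to 525, highest in the SkBr3 parent and 384 in its clone. The part of these signals in the results on the SkBr3 clone was not tested.

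ERBB2 encodes the HER2 receptor tyrosine kinase, and extra copies of the surrounding chromosome segment are a defining lesion of HER2-positive breast cancer. Such an amplicon carries neighbouring genes along with ERBB2, its ends differ from tumour to tumour, and a gene inside it is often transcribed at a higher level. The neighbours have unrelated jobs. Some belong to transcription and chromatin complexes (MED1, MED24, CDK12, MLLT6, PCGF2, SMARCE1), some to the ribosome and the proteasome (RPL19, RPL23, PSMB3, PSMD3), some handle lipids (STARD3, ORMDL3, PGAP3), and some are adaptors of receptor signaling and adhesion (GRB7, LASP1, TNS4). The arrays measured RNA only, and gene copy number was not measured. A bulk signal also cannot tell fewer expressing cells from less RNA per cell.

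The promoters of 5 members are shown because they stand for the segments compared below. PIP4K2B and CWC25 are neighbours in the segment that was lower in SkBr3, MIEN1 borders ERBB2 and hardly differed, and WIPF2 and SMARCE1 belong to the telomeric segment that was higher in SkBr3. Each sequence is the 250 bases before the transcription start (RefSeq, GRCh38.p14), written 5′ to 3′ on the strand of the gene. Capitals mark a GC box (GGGCGG, or CCGCCC on the other strand) or a CCAAT box (CCAAT, or ATTGG on the other strand), and matches that overlap were counted separately. The positions are chr17:38799557-38799806 (PIP4K2B, minus strand), chr17:38825322-38825571 (CWC25, minus strand), chr17:39730533-39730782 (MIEN1, minus strand), chr17:40219054-40219303 (WIPF2, plus strand) and chr17:40647819-40648068 (SMARCE1, minus strand).
PIP4K2B: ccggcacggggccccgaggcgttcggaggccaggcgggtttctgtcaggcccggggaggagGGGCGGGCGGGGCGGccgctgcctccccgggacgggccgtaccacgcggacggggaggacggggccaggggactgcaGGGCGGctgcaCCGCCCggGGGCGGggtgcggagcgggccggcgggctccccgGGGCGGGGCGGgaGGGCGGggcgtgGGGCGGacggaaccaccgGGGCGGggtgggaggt
CWC25: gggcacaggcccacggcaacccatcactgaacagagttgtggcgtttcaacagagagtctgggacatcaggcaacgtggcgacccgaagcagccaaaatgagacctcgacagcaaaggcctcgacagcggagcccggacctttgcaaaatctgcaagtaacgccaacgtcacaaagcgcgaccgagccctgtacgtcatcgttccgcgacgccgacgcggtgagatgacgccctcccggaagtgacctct
MIEN1: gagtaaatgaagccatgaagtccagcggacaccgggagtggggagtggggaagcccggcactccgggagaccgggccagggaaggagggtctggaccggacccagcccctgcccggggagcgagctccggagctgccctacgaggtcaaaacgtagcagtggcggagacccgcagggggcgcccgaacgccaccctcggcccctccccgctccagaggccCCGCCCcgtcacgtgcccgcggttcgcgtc
WIPF2: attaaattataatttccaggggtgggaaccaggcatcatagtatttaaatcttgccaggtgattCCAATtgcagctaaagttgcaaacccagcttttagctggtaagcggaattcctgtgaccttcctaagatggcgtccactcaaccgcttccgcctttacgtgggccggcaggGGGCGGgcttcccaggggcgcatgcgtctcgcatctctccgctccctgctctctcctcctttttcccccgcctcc
SMARCE1: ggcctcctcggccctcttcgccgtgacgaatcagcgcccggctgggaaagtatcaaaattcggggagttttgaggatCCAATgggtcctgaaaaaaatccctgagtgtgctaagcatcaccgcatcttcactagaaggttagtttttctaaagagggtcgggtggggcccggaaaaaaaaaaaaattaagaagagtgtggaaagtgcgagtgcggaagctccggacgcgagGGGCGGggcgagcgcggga

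The window of PIP4K2B held 11 GC boxes and 35 CpG dinucleotides, and that of CWC25 held 0 GC boxes and 24 CpG dinucleotides. MIEN1 had 1 GC box, while WIPF2 and SMARCE1 each had 1 GC box and 1 CCAAT box. Promoter windows were on hand for 24 members, of which 16 held a GC box, 10 a CCAAT box and 0 the TATA box sequence TATAAA (or TTTATA). Among all 35116 promoter windows the shares were 42.6%, 32.0% and 10.7%. These shares are by window, whereas the members were counted by gene and had 28 windows among them, so the bases are unlike. The median number of CpG dinucleotides was 19 in the members' 28 windows and 11 in all windows. A letter match is a description and does not show that a factor binds.

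To examine how the neighbourhood of ERBB2 was transcribed in the lines before selection, the SkBr3 parent was compared with the BT474 parent. Of the 30 members, 13 were at least 2-fold lower in SkBr3 and 7 at least 2-fold higher, whereas 19.0% and 18.6% of all 12136 genes were lower and higher. The members' median log2 difference was -0.61, beside 0.02 for all genes. The direction varied with position along the chromosome. In the centromeric segment from MLLT6 to FBXL20, 8 of 11 members were at least 2-fold lower in SkBr3 and 0 were higher (median -3.09). From MED1 to PGAP3, 2 of 7 were lower and 2 higher (median -0.43), and from MIEN1 to PSMD3 2 of 6 were lower and 1 higher (median -0.23). In the telomeric segment from MED24 to SMARCE1, 4 of 6 were higher and 1 was lower (median 1.63). PCGF2, PNMT, IKZF3, PPP1R1B and TNS4 reached the signal of 100 on some arrays only, and such a gene has to differ between arrays.

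**Figure D1:**
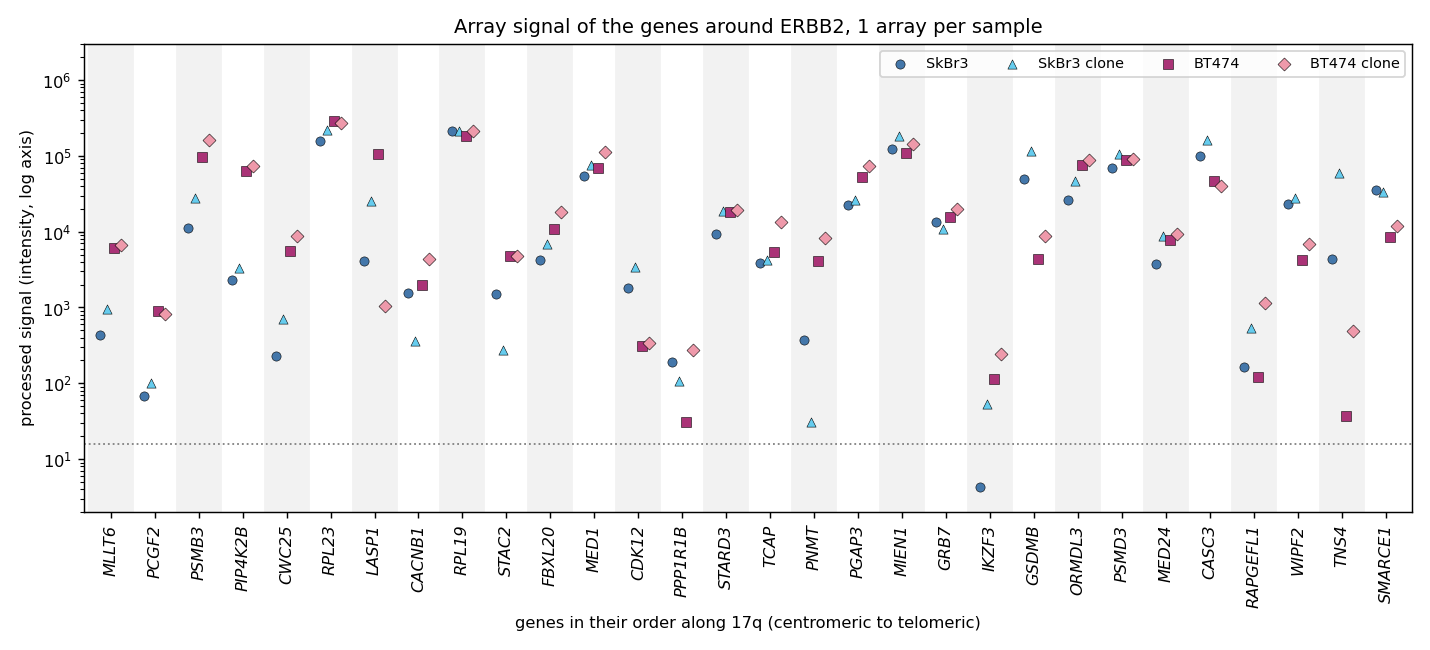
Processed signal (log axis) of the 30 members that passed the signal filter, in their order along 17q, with 1 point per array. The dotted line marks a signal of 16, near the lowest signal well above background, and points should be compared within a gene and not between genes. SkBr3 and its clone lie below both BT474 arrays from MLLT6 to CWC25, and above them for GSDMB, CASC3, WIPF2, TNS4 and SMARCE1.

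The 5 consecutive genes MLLT6, PCGF2, PSMB3, PIP4K2B and CWC25, singled out after their values were seen, were all lower in SkBr3, by 8.53-fold to 26.5-fold. MLLT6, a chromosomal translocation partner of the MLL gene with a chromatin-reading domain, gave signals of 435 in SkBr3, 948 in the SkBr3 clone, 6144 in BT474 and 6700 in the BT474 clone. Both SkBr3 arrays lay far below both BT474 arrays. The parents differed by -3.76 (log2), and the other 2 MLLT6 probes gave -3.42 and -2.23. For PCGF2, a Polycomb ring finger protein, the signals were 67.5, 102, 908 and 817 in the same order of samples (log2 difference of the parents -3.70). PSMB3, a subunit of the proteasome core, read 11044 in SkBr3 and 28172 in its clone against 97936 in BT474 and 160424 in its clone (-3.09). It was therefore abundant in all 4 samples and still differed by 8.53-fold between the parents.

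PIP4K2B, a kinase that phosphorylates phosphatidylinositol 5-phosphate, had the lowest ratio of SkBr3 to BT474 among the members in the parents. Its signals were 2285 in SkBr3, 3270 in the SkBr3 clone, 62955 in BT474 and 73940 in the BT474 clone, a 26.5-fold difference between parents (-4.73). The other probes of PIP4K2B gave -4.97 and -4.58. CWC25, a splicing factor, was close behind with 228, 700, 5513 and 8691 in the same order (-4.54), and its other probe gave -4.53. In both genes no SkBr3 value came near a BT474 value.

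RPL23, the next gene, encodes a protein of the large ribosomal subunit and differed much less, by -0.80, with signals from 157819 in SkBr3 to 285559 in BT474. Its neighbour LASP1, an actin-binding protein of focal adhesions, returned to the pattern of the block in the parents (4146 in SkBr3 and 104958 in BT474, 24.4-fold lower in SkBr3). The clone arrays for LASP1 are treated separately below. RPL19, a second ribosomal protein gene further along, read 214658 in SkBr3 and 182708 in BT474 (0.29). STAC2, an adaptor of voltage-gated calcium channels, was 3.04-fold lower in SkBr3 (1507 against 4758), and FBXL20, a substrate receptor of a ubiquitin ligase, was 2.40-fold lower (4284 against 10700). CACNB1, a calcium channel beta subunit, had nearly equal signals in the parents (1544 and 1950). A dim CACNB1 probe gave 209 in SkBr3 and 15.8, not well above background, in BT474, so that the probes of this gene did not agree in the parental comparison.

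The members on either side of ERBB2 were not alike in the parents. MIEN1 and GRB7, on the telomeric side, differed little, while PGAP3 and PNMT, on the centromeric side, were at least 2-fold lower in SkBr3. MIEN1, a small membrane-anchored protein that promotes migration, had signals of 122135 in SkBr3, 185252 in its clone, 110767 in BT474 and 145763 in its clone, and the parents differed by 0.20. GRB7, an adaptor that binds activated receptor tyrosine kinases including HER2, read 13288 in SkBr3 and 15500 in BT474 (-0.17). STARD3, a cholesterol-binding protein of late endosomes, read 9257 and 18090 (-0.91), which is under the 2-fold limit, while its other probe gave -1.09. PGAP3, which remodels the lipid part of GPI anchors, was 2.31-fold lower in SkBr3 (22188 against 53270). These 4 genes were well above background on every array.

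MED1, a Mediator subunit that contacts nuclear receptors, was also close in the parents, with 54936 in SkBr3 and 68510 in BT474 (-0.26). CDK12, a kinase of the RNA polymerase II tail, lies directly beside MED1 and went the other way, with 1830 in SkBr3, 3400 in its clone, 312 in BT474 and 338 in its clone. The parents thus differed by 6.09-fold (2.61). PPP1R1B, the phosphatase inhibitor DARPP-32, was dim but higher in SkBr3 (189 against 30.8, log2 difference 2.68, and 1.64 after normexp correction with quantile normalization). TCAP, a sarcomere protein, read 3860 and 5386 (-0.43). Its neighbour PNMT, the enzyme that makes adrenaline from noradrenaline, read 368 in SkBr3 and 4142 in BT474, 10.8-fold lower in SkBr3.

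Beyond GRB7 the order was mixed. IKZF3, a zinc finger factor of lymphocytes, was not well above background in SkBr3 (4.24) and read 113 in BT474, a difference of at least 6.8-fold (log2 limit -2.76, and -1.44 after normexp correction with quantile normalization). GSDMB, a pore-forming gasdermin, was 11.9-fold higher in SkBr3, with 49878 in SkBr3, 115804 in its clone, 4362 in BT474 and 8787 in its clone. ORMDL3, a regulator of sphingolipid synthesis that lies next to GSDMB, was 2.78-fold lower in SkBr3 (25907 against 74770), and a dimmer probe gave -0.50. PSMD3, a subunit of the proteasome cap, read 69763 and 89370 (-0.30), with -1.04 from its other probe.

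The telomeric segment was where SkBr3 exceeded BT474. MED24, another Mediator subunit, was still lower in SkBr3 and lay at the 2-fold limit (3703 against 7697, log2 difference -1.0). CASC3, a core protein of the exon junction complex, was higher in SkBr3 with 99891 in SkBr3, 161849 in its clone, 46048 in BT474 and 39564 in its clone, a difference of 1.17 between the parents. Its other probes gave 1.38 and 2.01. WIPF2, which binds the actin regulator WASP, read 23147, 27786, 4225 and 6941 in the same order (2.51). SMARCE1, a subunit of the SWI/SNF chromatin remodeler, read 34974, 33721, 8518 and 11915 (2.09, and 1.12 from its other probe). RAPGEFL1, a protein related to Rap guanine nucleotide exchange factors, had similar signals in the parents (165 and 121).

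TNS4, a focal adhesion protein also called C-terminal tensin-like, had the greatest difference of all members between the parents. Its signal was 4308 in SkBr3, 59079 in the SkBr3 clone, 37.4 in BT474 and 485 in the BT474 clone. SkBr3 was 120-fold above BT474 (log2 difference 6.90, and 5.69 after normexp correction with quantile normalization). Every SkBr3 value exceeded every BT474 value.

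By function the groups were small, and their counts stand beside 19.0% lower and 18.6% higher among all genes. Of 7 transcription and chromatin genes that passed the filter, 4 were at least 2-fold lower in SkBr3 and 2 were higher, while the 4 ribosome and proteasome genes gave 1 lower and 0 higher. The 9 genes for signaling and the cytoskeleton gave 3 lower and 3 higher, the 3 lipid genes 2 lower and 0 higher, and the pair of RNA-processing genes 1 each way. All 3 lipid genes were below 0 (-1.47 to -0.91). The 5 genes of other functions gave 2 lower and 1 higher.

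The genes outside the list were counted by position without naming them. Of the 25 genes with a probe just centromeric to MLLT6, 17 passed the filter, and 15 of these were at least 2-fold lower in SkBr3 and 0 higher (median -2.10). Of the 25 just telomeric to SMARCE1, 7 passed, of which 3 were higher and 0 lower (median 0.80). The 9 other genes that passed within the stretch itself, ERBB2 among them, gave 1 lower and 3 higher (median 0.57). Of all 688 genes of chromosome 17 outside the list that passed, those just counted included, 155 were lower and 132 higher (median -0.06).

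**Figure D2:**
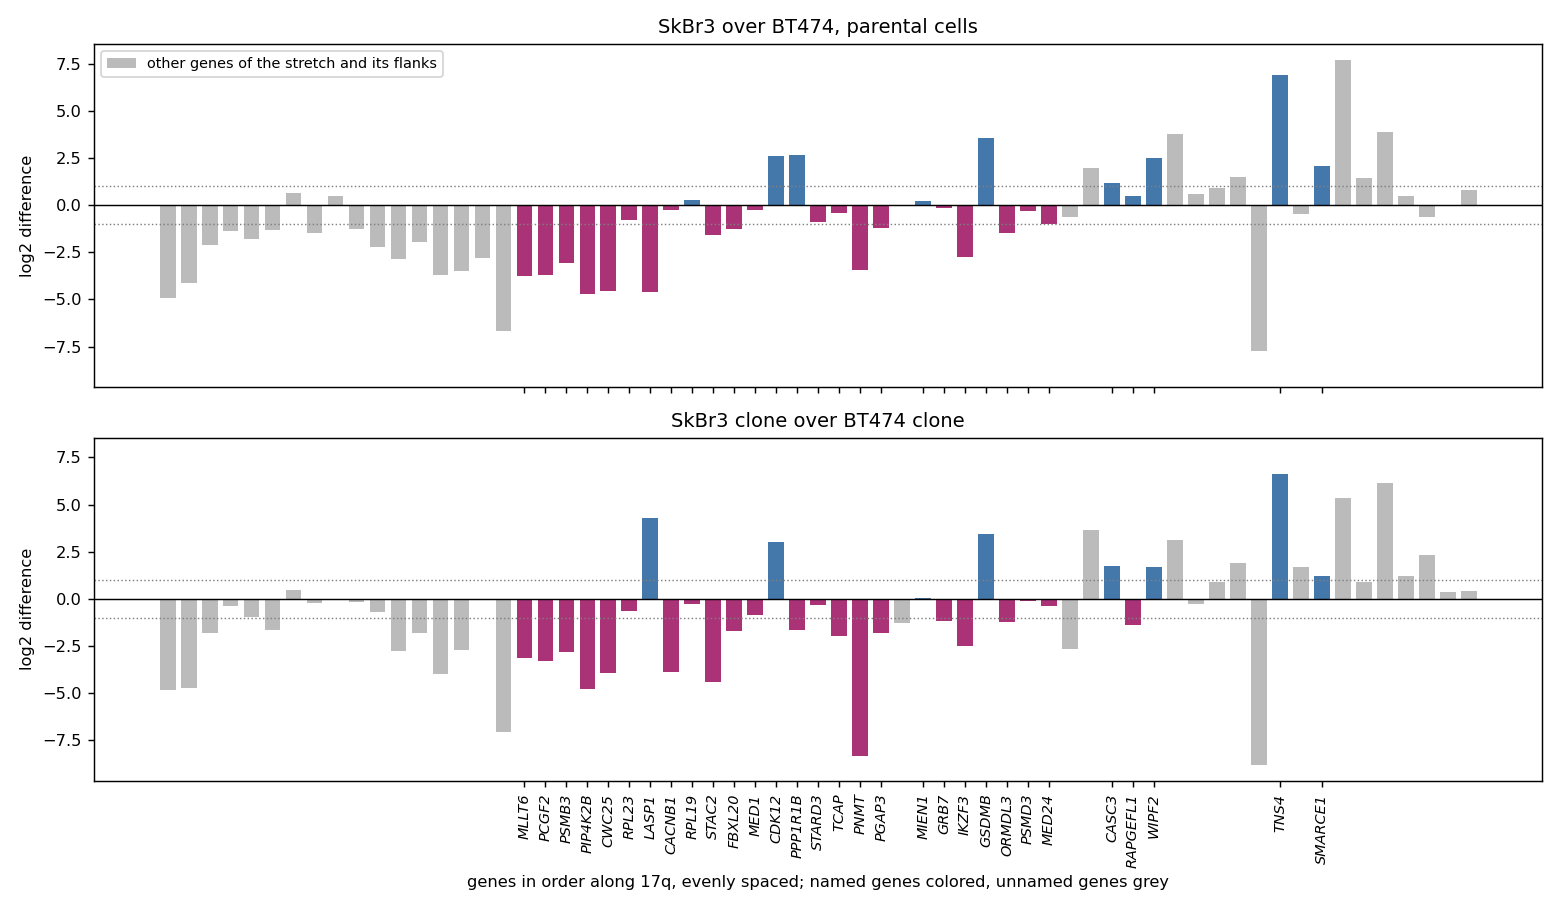
Log2 difference of SkBr3 over BT474 for each gene that passed the filter and had a value, in order along 17q and evenly spaced, for the parents (top) and the clones (bottom). Members are named and colored by direction, grey bars are the other genes of the stretch and of the 25 genes on either side, and dotted lines mark 2-fold. Bars are mostly below 0 on the left up to CWC25 and mostly above 0 from CASC3 on, in both panels.

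To determine whether these line differences were still present after selection, the SkBr3 clone was compared with the BT474 clone, a pair of arrays that shares none with the parental comparison although each clone descends from its parent. At least 2-fold, 16 of the 30 members were lower in the SkBr3 clone and 7 were higher, beside 23.4% and 24.2% of all genes. The median was -1.19, and 0.09 for all genes. Of the 20 members that differed at least 2-fold between the parents, 17 (85.0%) did so the same way between the clones. Among all genes, 2986 of 4568 (65.4%) did. The shares do not start from like differences. The median absolute log2 difference between the parents was 1.54 over the 30 members and 0.75 over all genes. LASP1 and PPP1R1B were the members that differed at least 2-fold in opposite directions, and MED24 (-0.37) fell short of 2-fold. Over the 30 members the parental and clone differences had a Pearson r of 0.68, beside 0.69 over all genes with both values. Leaving out LASP1 gave 0.86 over 29 members, which is not comparable with the 0.69, as no gene was dropped in this way there. These are correlations across genes, which are not independent replicates.

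The centromeric block differed between the clones much as between the parents. Its 5 genes differed by -4.80 to -2.81 between the clones, against -4.73 to -3.09 between the parents. Of the 17 genes just centromeric to MLLT6 that passed, 9 were at least 2-fold lower and 0 higher in the SkBr3 clone. Their median was -1.66, whereas between the parents 15 of them were lower (median -2.10). Within the block, PCGF2 moved most with the processing, from -3.31 to -2.18 after normexp correction with quantile normalization. PIP4K2B differed by 27.9-fold and CWC25 by 15.3-fold by their brightest probes. The PIP4K2B probes spread widely here, with log2 differences of -4.50 and -6.61 from the other probes beside -4.80 from the brightest. The telomeric genes were also still higher in the SkBr3 clone, TNS4 by 98.7-fold, WIPF2 by 3.25-fold, CASC3 by 3.32-fold and SMARCE1 by 2.29-fold, as were GSDMB (10.7-fold) and CDK12 (8.17-fold). SMARCE1 went from 1.20 (log2) to 0.90 with quantile normalization, under 2-fold. Several genes were at least 2-fold apart in the clones alone. These were CACNB1 (-3.91), TCAP (-1.98), GRB7 (-1.17) and RAPGEFL1 (-1.40), all lower in the SkBr3 clone. A dimmer CACNB1 probe went the other way (0.49), and the mean over probes gave -2.44. With median scaling RAPGEFL1 gave -0.99, GRB7 -0.76 and ORMDL3 -0.80, all under 2-fold.

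**Figure D3:**
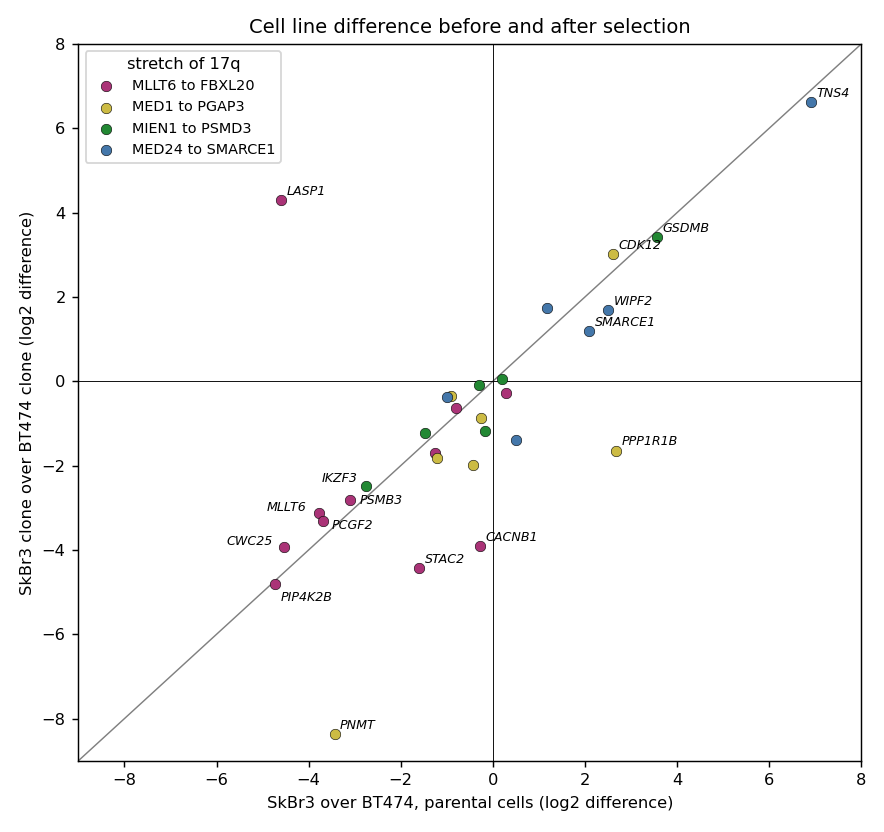
Each point is 1 of the 30 members, with the log2 difference of SkBr3 over BT474 in the parents on the horizontal axis and in the clones on the vertical axis, colored by stretch of 17q. The grey line marks equal differences. Most points lie along it, while LASP1 (-4.61 and 4.31), PPP1R1B (2.68 and -1.64), PNMT (-3.44 and -8.35) and CACNB1 (-0.28 and -3.91) lie apart.

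In limma with cell line and resistance as terms, the line difference passed an adjusted p of 0.05 for 98 genes higher (0.808%) and 145 genes lower (1.19%) in SkBr3 out of 12136. Among the members these were TNS4 (6.76 ± 0.38 SE, adjusted p 0.0393) and PIP4K2B (-4.77 ± 0.38 SE, adjusted p 0.0458). PIP4K2B did not pass with quantile normalization, and the number of members that passed ranged from 1 to 7 over the 4 alternatives run for limma. The test treats parent and clone as replicates of a line and leaves 1 residual degree of freedom. At an unadjusted p of 0.05 by limma, 17 of 30 members passed, beside 2978 of all 12136 genes. CWC25 (-4.24, adjusted p 0.0533), GSDMB (3.49, 0.0612) and PCGF2 (-3.50, 0.0622) missed the adjusted threshold narrowly by limma.

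To examine what accompanied resistance, each clone was compared with its own parent. In SkBr3, 2 of 30 members were at least 2-fold higher in the clone and 5 were lower, beside 13.4% and 12.9% of all genes, and the median was -0.30 (all genes -0.05). That median was -0.14 with median scaling, -0.095 with normexp and quantile normalization and -0.073 with quantile normalization alone. In BT474, 3 members were at least 2-fold higher and 1 was lower, beside 8.56% and 5.16%, with a median of -0.10 (all genes -0.08) whose sign turned under quantile normalization (0.16), and under normexp with it (0.21). The single lower member in BT474 was LASP1, so that without it the count was 0. The 5 genes of the centromeric block differed by less than 2-fold in both clones, from -0.38 to 0.72 in SkBr3 and from -0.69 to 0.17 in BT474. One of 3 PIP4K2B probes was an exception with -1.71 in the SkBr3 clone.

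TNS4 was the only member at least 2-fold higher in both clones, 7.37-fold in SkBr3 (2.88) and 8.94-fold in BT474 (3.16, and 2.06 after normexp correction with quantile normalization). The levels of the lines stayed far apart, with 485 in the BT474 clone against 4308 in the SkBr3 parent. In limma the resistance effect of TNS4 was 3.02 ± 0.38 (SE), with an unadjusted p of 0.00325 and an adjusted p of 0.967. By limma 0 of 12136 genes passed an adjusted p of 0.05 for resistance (0.0%), and 485 had an unadjusted p under 0.05. TNS4 was the 1 member among them.

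In the SkBr3 clone, 5 of 30 members were at least 2-fold lower than in the parent, beside 12.9% of all genes. LASP1 and TNS4 were at least 2-fold higher. Of the 5 lower members only GRB7 lies on the telomeric side of ERBB2 (-1.19, and -1.04 with median scaling). PNMT read 31.0 against 368 in the parent, a 22.1-fold difference (log2 difference -4.47, and -2.73 after normexp correction with quantile normalization). The genes on either side of it, TCAP (-0.77) and PGAP3 (-0.66), differed by less than 2-fold. STAC2 read 271 in the SkBr3 clone and 1507 in the parent (10.4-fold lower), while the BT474 arrays gave 4713 and 4758. CACNB1 read 360 in the SkBr3 clone and 1544 in the parent (7.97-fold lower), and its other probes gave -2.99 and -2.35. Between CACNB1 and STAC2, RPL19 differed by -0.89. GRB7 was 2.29-fold lower in the SkBr3 clone (10800 against 13288 before scaling), while it differed by -0.19 in BT474. MIEN1 (-0.29) and STARD3 (0.11) differed by less than 2-fold in the SkBr3 clone.

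Apart from LASP1, PPP1R1B was the only member at least 2-fold higher in one clone and at least 2-fold lower in the other. It read 108 in the SkBr3 clone and 189 in its parent (-1.71, and -1.14 after normexp correction with quantile normalization), and 272 in the BT474 clone and 30.8 in its parent (2.61, and 1.5 after that correction). RAPGEFL1 was 6.56-fold higher in the BT474 clone, with 1151 against 121, and 1.75-fold higher in the SkBr3 clone (537 against 165). IKZF3 read 53.4 in the SkBr3 clone, where its parent was not well above background, so that it was at least 1.79-fold higher, and 243 in the BT474 clone (0.57).

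LASP1 had a single probe with a single spot. Its signals were 4146 in SkBr3, 25418 in the SkBr3 clone, 104958 in BT474 and 1039 in the BT474 clone, which gave 3.30-fold higher in the SkBr3 clone (1.72) and 146-fold lower in the BT474 clone (-7.20). The scanner software marked the spot in the BT474 clone as non-uniform. No other spot of a member carried that mark. In BT474 the nearest members on either side that passed the filter, RPL23 (-0.60) and CACNB1 (0.63), differed by less than 2-fold by their brightest probes.

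**Figure D4:**
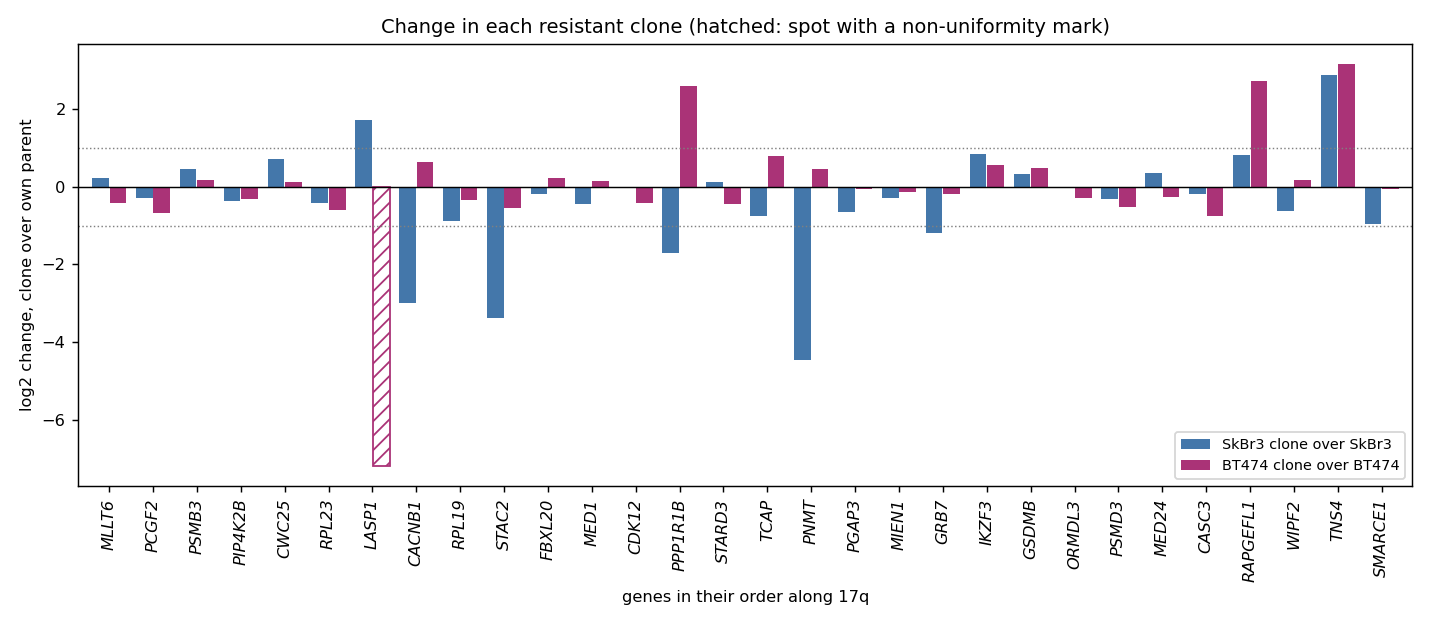
Log2 change of each clone over its own parent for the 30 members in order along 17q, with SkBr3 in blue and BT474 in purple. Dotted lines mark 2-fold, and the hatched bar is the LASP1 spot marked as non-uniform. TNS4 is past 2-fold upward in both lines, and PNMT, STAC2 and CACNB1 are lower in the SkBr3 clone by more than 2 log2 units.

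The subunits of large assemblies stayed within 2-fold in both clones by their brightest probes. RPL19 differed by -0.89 in the SkBr3 clone and -0.33 in the BT474 clone, and RPL23 by -0.42 and -0.60, although a second RPL23 probe gave 1.01 in the BT474 clone. Before scaling, RPL19 read 214658 in SkBr3 and 214802 in its clone, so its difference there came from the scaling. In BT474 it read 182708, and 210714 in the clone. PSMB3 differed by 0.46 and 0.17, and PSMD3 by -0.31 and -0.52. The Mediator subunits MED1 (-0.44 and 0.16) and MED24 (0.36 and -0.27), the kinase CDK12 (0.00 and -0.42) and the chromatin remodeler subunit SMARCE1 (-0.95 and -0.05) were likewise under 2-fold. Those are log2 changes of single arrays and do not show that the genes were unaltered. Among the lipid genes, ORMDL3 differed by -0.03 and -0.29.

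The remaining members were at or near background. PLXDC1, a receptor of blood vessel cells, read 15.7 to 64.3, and NEUROD2, a neuronal transcription factor, 18.3 to 44.7. ZPBP2, a sperm protein, was not well above background on any array. GSDMA (17.2) and CSF3 (35.4), which encodes a granulocyte growth factor, were well above background in the BT474 clone only. No probe was matched to MSL1, which is not analysed here.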

How the data were processed

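The authors deposited the scanner output of each array. Its processed signal was used, which is the intensity of a spot less its background and spatial trend. The file headers name Feature Extraction 10.1.1.1 and 1 Cy3 channel, whereas the methods name another version, Cy3 or Cy5 and LOWESS normalization. A second deposited table holds log2 values by probe, and its column medians were 0.13 (SkBr3), -0.20 (SkBr3 clone), 0.11 (BT474) and -0.05 (BT474 clone). Between arrays it differed from the log2 processed signals by 0.0 in the median, and how it was centered per probe is not given in the sources used here. The series design calls the experiment a comparison of parental cells with resistant clones.

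From the intensities, log2 values were averaged over the spots of a probe and the 75th percentile of 41000 non-control probes was subtracted. RefSeq accessions matched to GRCh38.p14 named 23680 probes. A gene was its brightest named probe by mean log2 signal, kept at a signal of at least 100 on at least 1 of 4 arrays. A probe counted as well above background if the software marked 50% or more of its spots so. A dimmer signal was raised to the lowest one so marked on its array, and the fold is then a limit. The coordinates of the array design are of an older build and were not used, and gene order and promoters are from GRCh38.p14. The files hold no replicates, and the number of arrays limits the precision. A difference of at least 2-fold was counted, and limma 3.58.1 (R 4.3.3) with Benjamini-Hochberg adjustment over 12136 genes was the only test. Scripts (Python 3.11.15, pandas 2.3.3, numpy 2.4.6) were tested on simulated data.

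Alternatives were scaling by the percentile over probes well above background, by the median or by quantiles, normexp correction (offset 50) of median pixel intensities with quantile normalization, the deposited log2 table, 16 added to signals, no filter, a filter on all 4 arrays, a 3-fold limit, removal of outlier spots, the mean over probes, and limma without its other term. Values are given for members past 2-fold in any comparison, for MED1, CDK12 and the neighbours of ERBB2, and for subunits of ribosome, proteasome and Mediator. The members and lists were chosen with earlier results of these data known.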

Additional observations from a re-analysis of the deposited data

Results flagged for a closer look

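In 4 members the clones of SkBr3 and BT474 differed from their parents in opposite directions, with at least 1 of the differences past 2-fold. LASP1 differed by 1.72 (log2) in the SkBr3 clone and by -7.20 in the BT474 clone, where its only spot was marked as non-uniform. CACNB1 differed by -2.99 and 0.63, PPP1R1B by -1.71 and 2.61, and PNMT by -4.47 and 0.45, in the same order. The difference between the lines was not tested in any of the 4, since there is 1 array per sample. Such opposite differences occurred in 13.3% of the 30 members and in 16% of the 11455 genes with both values.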

How the results depend on the processing

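Of 536 alternative values for the 54 member differences of at least 2-fold, 0 changed sign and 526 stayed at least 2-fold. The others were of ORMDL3, MED24 and CASC3 between the parents and GRB7, ORMDL3, RAPGEFL1 and SMARCE1 between the clones. Several alternatives could hardly move a value, so these counts overstate the stability. A changed filter leaves the value of a gene as it was, and the deposited table holds the same signals. Removing outlier spots touched members other than LASP1 only through the scaling. The members' median between the parents moved from -0.61 to -0.46 without a filter and -0.46 with probes above background on all 4 arrays. That of the SkBr3 clone moved from -0.30 to -0.14 with median scaling, -0.073 with quantile normalization and -0.095 with normexp. That of the BT474 clone moved from -0.10 to 0.0084 with the percentile over probes above background, -0.31 with median scaling, 0.16 with quantiles and 0.21 with normexp. Its sign therefore depends on the scaling. Between the clones it moved from -1.19 to -1.38 with that percentile, -0.78 with median scaling, -1.09 with normexp, -1.04 without a filter, -1.04 with the filter on all 4 arrays and -1.05 with the mean over probes. Median scaling itself moved the median of all genes from 0.09 to 0.50 in that comparison. Leaving out outlier spots, which removes LASP1 in the BT474 clone, left 0 lower members there. The members with a line difference by limma numbered 2, and 4 with median scaling, 1 with quantiles, 6 with probes above background on all 4 arrays and 7 without the resistance term. For resistance limma gave 0 members in each of these 4 alternatives, the ones run for it. The cause was not tested except where the alternative removes spots or genes. No paired analysis was possible because each group holds 1 array and the groups share only the replicate number 1, apart from the cell line term of limma, which sets each clone against its own parent. Low signals limit PCGF2, PPP1R1B, PNMT, IKZF3 and TNS4, and the absence of replicates limits every fold.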
